A study of Homo sapiens with 6 samples.

Results

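The 42 genes described here carry out DNA replication and cell division, and all 42 were found by symbol among the 51103 genes of the series. They were chosen by name as 20 S-phase genes (MCM2 to CDT1) and 22 G2 and mitosis genes (MKI67 to UBE2C), and all 42 passed the filter on low counts. RNA was sequenced in 6 libraries from AGS and HGC-27, established lines of human gastric cancer, with 1 negative control library and 2 libraries labelled NINJ1-overexpression per line. NINJ1 encodes ninjurin-1, a cell surface protein involved in plasma membrane rupture. Cells had received a lentivirus carrying NINJ1, both lines were grown in DMEM with fetal bovine serum, and RNA was taken after 48 hours. The labels name neither the promoter of the vector nor what virus the controls received, and they do not say whether the replicates were separate cultures, so p-values here measure the spread between libraries only.

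In a dividing cell, replication origins are licensed in G1 by CDC6, CDT1 and the MCM2-7 helicase, and fired in S phase by CDC45, the GINS complex and the DNA polymerases. Many of these genes are transcribed under E2F factors before S phase. Genes for the mitotic spindle, the spindle checkpoint and cyclin B peak later, in G2 and mitosis, and many carry a cell cycle homology region (CHR) and CCAAT boxes in their promoters. The level of such genes in a culture therefore depends on how its cells are spread over the cycle. In bulk RNA, fewer cells in a phase and less RNA per cell cannot be told apart.

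The titles and the file names give opposite lines for the replicate 2 libraries labelled NINJ1, and lines here follow the file names. Of 15 genes seen in the HGC-27 libraries of undisputed line and not in those of AGS, 15 were seen in the replicate 2 library named HGC-27 by its file and 0 in the other. The reverse held for 13 of 13 AGS genes. Libraries held 12619684 to 18175697 counts. NINJ1 itself was counted 71 times in the HGC-27 control and 264 and 300 times in the HGC-27 NINJ1 libraries, and 402 times in the AGS control against 261 and 221 in the AGS libraries labelled NINJ1. Its log2 change was 1.89 ± 0.24 (SE) in HGC-27 and -0.68 ± 0.19 in AGS (edgeR quasi-likelihood test, adjusted p = 3.22e-08 and 0.0148), so the AGS label was not borne out by the NINJ1 count. The AGS value did not pass with DESeq2 (adjusted p = 0.136) or without replicate 2 (edgeR adjusted p = 0.260). With a correction for GC content the HGC-27 change was 0.50 with an edgeR adjusted p of 0.0680. The HGC-27 control stands apart by base composition, with 2.31% of its counts from genes above 60% GC, against 9.25% to 11.3% in the other libraries. Epithelial keratin genes KRT8 and KRT18 were at 48.6 to 111.1 FPKM in every library (counts scaled by gene length and library total), while the epithelial markers EPCAM and CDH1 were at 2.57 to 7.93 and at 0 to 0.454 FPKM. The 8 epithelial markers summed to 262.6, 319.8 and 343.4 FPKM in the HGC-27 control and NINJ1 libraries, and to 205.4, 165.0 and 166.5 FPKM in AGS. Of the others in this list, KRT19 was at most at 0.0339 FPKM. CLDN4 was at 0.725, 8.46 and 10.1 FPKM in the HGC-27 control and NINJ1 libraries, and at 10.4, 9.12 and 8.06 FPKM in AGS. CLDN7 was at 0.287, 2.44 and 2.61 FPKM in HGC-27 and at 12.9, 5.09 and 3.72 FPKM in AGS. In HGC-27, KRT7 was at 59.3 FPKM in the control and at 186.6 and 185.6 FPKM in the NINJ1 libraries (log2 fold change 1.25, and -1.24 with the correction for GC content), while KRT8 was at 82.8 FPKM in the control and at 53.7 and 61.4 FPKM in the others. Blood cell markers (6 genes) summed to at most 1.45 FPKM and fibroblast and endothelial markers (7 genes) to at most 7.52 FPKM, both in the AGS control.

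The promoters of the 2 classes are shown first, since the classes differ in the short sequences that E2F and CHR-binding complexes recognise. RefSeq promoter entries of GRCh38.p14 (250 bases before to 50 after the transcript start) were at hand for 35 of 42 members and for 27305 genes in all. Entries for MCM4, MCM5, AURKA, BIRC5, TPX2, TTK and UBE2C were missing. Both strands were searched for the E2F motif (TTTCCCGC, TTTCGCGC, TTTGCCGC or TTTGGCGC), for the CHR (TTTGAA) and for the CCAAT box (CCAAT). The stretches below run from 170 bases before the start to 30 bases from it, 5′ to 3′ on the gene's strand, and belong to the members of highest mean FPKM in each class whose entry holds a motif of that class. Capitals mark every match on either strand, so ATTGG is a CCAAT box on the opposite strand, GCGGGAAA an E2F motif and TTCAAA a CHR.
PCNA (chr20:5126593-5126792, minus strand): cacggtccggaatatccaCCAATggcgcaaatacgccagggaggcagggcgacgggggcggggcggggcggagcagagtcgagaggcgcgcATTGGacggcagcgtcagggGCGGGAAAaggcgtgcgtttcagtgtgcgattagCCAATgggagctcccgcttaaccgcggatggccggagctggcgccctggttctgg
MCM7 (chr7:100101368-100101567, minus strand): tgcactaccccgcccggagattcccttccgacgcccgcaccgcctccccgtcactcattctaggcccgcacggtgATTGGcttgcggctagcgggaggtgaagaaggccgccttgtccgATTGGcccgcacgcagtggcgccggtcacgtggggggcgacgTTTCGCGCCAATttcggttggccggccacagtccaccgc
MCM3 (chr6:52284713-52284912, minus strand): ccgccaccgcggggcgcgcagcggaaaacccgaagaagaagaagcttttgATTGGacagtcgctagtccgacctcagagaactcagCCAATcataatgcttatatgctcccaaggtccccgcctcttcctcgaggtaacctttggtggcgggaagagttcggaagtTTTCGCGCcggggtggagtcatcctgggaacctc
TOP2A (chr17:40417867-40418066, minus strand): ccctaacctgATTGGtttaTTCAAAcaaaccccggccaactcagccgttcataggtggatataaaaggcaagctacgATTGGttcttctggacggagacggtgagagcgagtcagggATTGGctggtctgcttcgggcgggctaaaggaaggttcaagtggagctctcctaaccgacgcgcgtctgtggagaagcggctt
CDK1 (chr10:60778161-60778360, plus strand): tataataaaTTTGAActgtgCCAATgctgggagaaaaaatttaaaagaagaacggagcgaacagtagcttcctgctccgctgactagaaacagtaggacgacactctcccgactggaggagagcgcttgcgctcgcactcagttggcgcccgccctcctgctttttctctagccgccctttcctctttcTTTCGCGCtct
CCNB1 (chr5:69166980-69167179, plus strand): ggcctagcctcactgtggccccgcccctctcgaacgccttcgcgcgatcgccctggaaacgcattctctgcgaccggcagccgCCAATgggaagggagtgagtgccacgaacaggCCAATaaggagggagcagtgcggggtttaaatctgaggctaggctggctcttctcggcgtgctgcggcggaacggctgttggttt
The first 3 stretches belong to S-phase genes and the last 3 to G2 and mitosis genes. With the transcript start as position 0, the E2F motif began at -59 in PCNA, at -9 in MCM7 and at -4 in MCM3. In MCM7 its last base is also the first base of a CCAAT box at -2. TOP2A holds a CHR at -151 in this stretch and CCAAT boxes at -160, -93 and -53. CDK1, the kinase that drives entry into mitosis, holds a CHR at -161 and an E2F motif at 19. CCNB1, its cyclin, holds CCAAT boxes at -87 and -55 and no match to these CHR letters.

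Counted over genes with an entry, 12 of 18 S-phase members (66.7%) held the E2F motif, against 2 of 17 G2 and mitosis members (11.8%) and 3.99% of all 27305 genes. The CHR letters lay in 1 of 18 S-phase members (RRM1) and in 12 of 17 G2 and mitosis members (70.6%), with 18.2% over all genes. CCAAT boxes were in 11 of 18 and in 15 of 17, against 39.7% of all genes. Among 46 other mitosis genes with an entry, such as kinesins, condensins and kinetochore genes, 67.4% held the CHR and 6.52% the E2F motif. Of 32 other replication genes with an entry, 37.5% held the E2F motif. A match describes letters in this window and not a bound site.

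**Figure D1:**
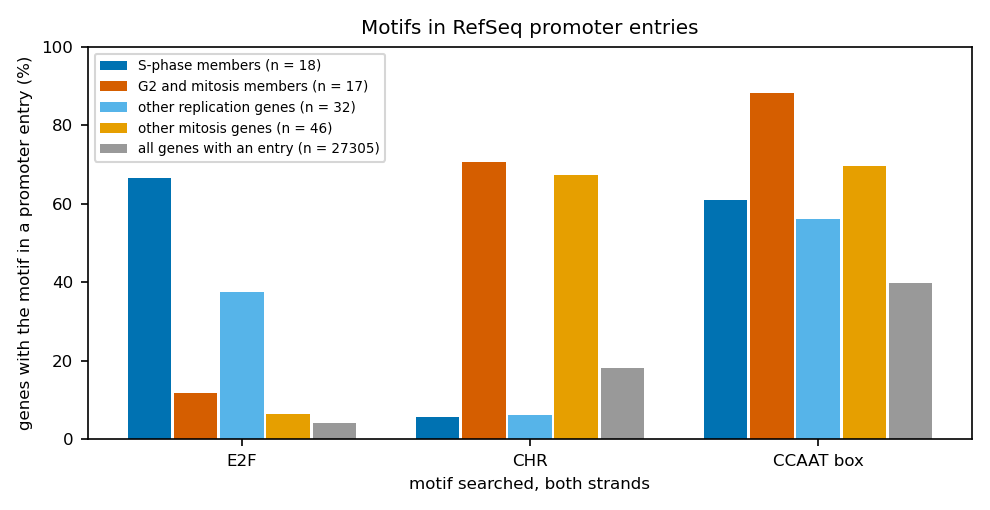
Share of genes (%, vertical axis) whose RefSeq promoter entry holds the E2F motif, the CHR or the CCAAT box on either strand, for the members of each class, 2 lists of other cell cycle genes and all genes with an entry. Among the sets shown, the E2F motif is most frequent in S-phase members (66.7%) and the CHR in G2 and mitosis members (70.6%).

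Per length, the members spanned a wide range of mean FPKM over the 6 libraries. TOP2A (the topoisomerase that untangles sister chromatids, 150.5 FPKM), TPX2 (a spindle assembly factor, 125.9), RRM1 (the large subunit of ribonucleotide reductase, 101.1), PCNA (the sliding clamp of the replicative polymerases, 99.9) and CDK1 (99.7) were the highest. PRC1 (0.547), NUSAP1 (1.19) and TYMS (5.45) were the lowest. These 3 genes also share the largest parts of their exons with other genes in GENCODE 29. For PRC1, 58.4% of exon bases overlap other genes' exons, nearly all with the same-strand gene AC068831.7, which held 289 to 386 counts per library. For NUSAP1, 62.2% are shared with AC087721.2, which held 0 counts in each library, and for TYMS 46.6% with ENOSF1 and TYMSOS on the opposite strand. Values of PRC1, NUSAP1 and TYMS are therefore uncertain. Of the other members, 28 share no exon base with another gene. MCM2 shares 23.6% and PLK1 12.5% with genes on the opposite strand, and RRM2 20.2% and BUB1B 10.2% with genes on the same strand. The rest share smaller parts.

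**Figure D2:**
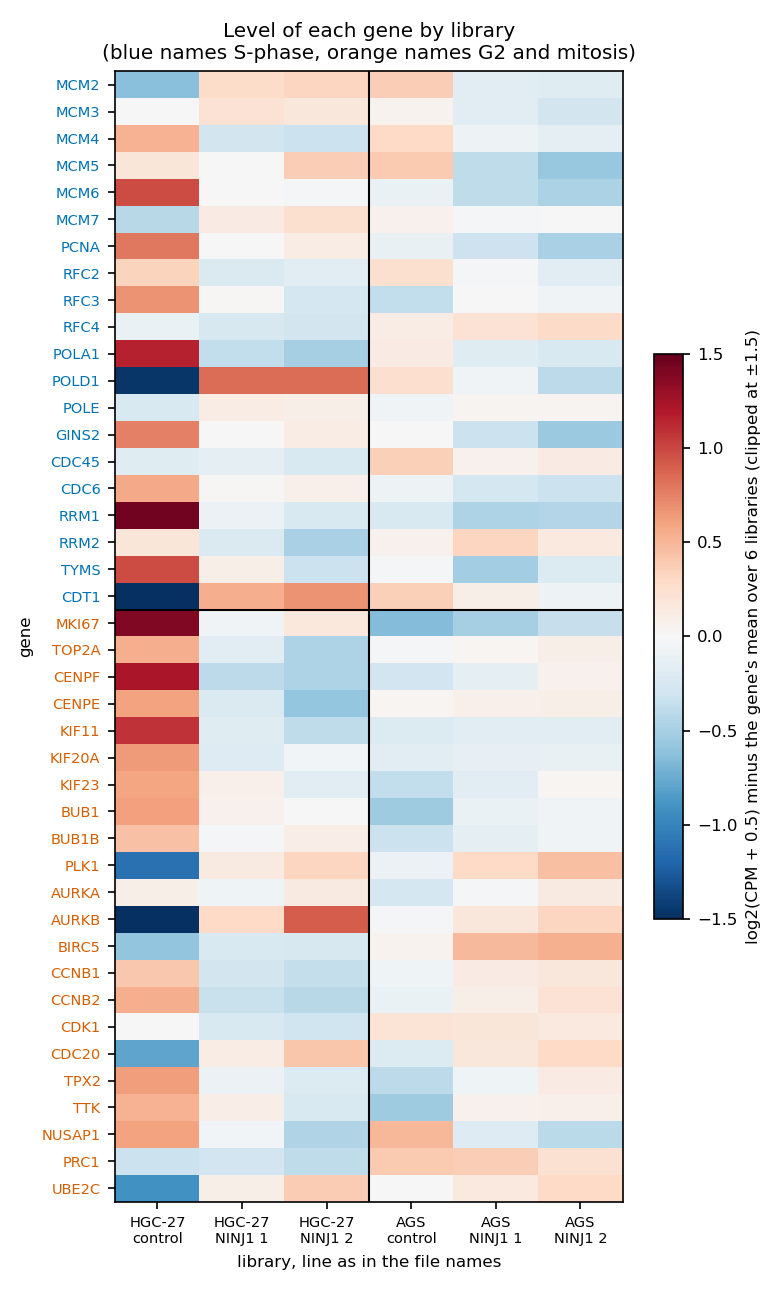
Heat map of the 42 members (rows, S-phase above the line) in the 6 libraries (columns); colour is log2(CPM + 0.5) minus the gene's mean over the libraries, clipped at 1.5 in either direction. The HGC-27 control column holds the strongest colours in both directions, and in AGS most S-phase genes are paler or bluer and most G2 and mitosis genes redder in the libraries labelled NINJ1 than in their control.

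Levels across libraries are given below as CPM, counts relative to the library total (per 1e6 counts) after scaling by TMM, edgeR's trimmed mean of M-values. Averaged over its genes on the log2 scale, the S-phase class was 0.10 above the G2 and mitosis class in the AGS control, and 0.27 and 0.41 below it (values of -0.27 and -0.41) in the AGS libraries labelled NINJ1. In HGC-27 the same differences were -0.12 in the control and 0.01 and 0.00 in the NINJ1 libraries. After the GC correction these differences were -0.03, -0.35 and -0.47 in AGS, and 0.38, -0.07 and -0.16 in HGC-27, so the direction between control and NINJ1 libraries turned in HGC-27 and held in AGS. As shares of all counts, the S-phase genes made up 0.317% in the control of AGS, and 0.286% and 0.272% in the AGS libraries labelled NINJ1. The G2 and mitosis genes made up 0.456%, 0.532% and 0.564% in the same order. These class values carry no test, because the members were chosen with results of these data known.

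In AGS, the 2 classes lay on opposite sides of the control in the libraries labelled NINJ1. Of the 20 S-phase genes, 4 were called lower (MCM5, MCM2, MCM4 and POLD1) and 0 higher, and of the 22 G2 and mitosis genes, 6 were called higher (TTK, BUB1, PLK1, BIRC5, CDC20 and TPX2) and 0 lower, at an adjusted p under 0.05 with edgeR. Over all 17617 genes tested, 9.3% were called lower and 5.73% higher. A separate fit of the 7550 genes with a mean FPKM of at least 5, the level of most members, called 13.5% lower and 7.07% higher. More S-phase members were lower in that fit as well, as given further below. The median log2 change was -0.30 over the S-phase genes, 0.24 over the G2 and mitosis genes and 0.00 over all genes tested. The 2 AGS libraries labelled NINJ1 differed from each other by a median absolute log2 value of 0.08 over the S-phase and 0.14 over the G2 and mitosis genes. In sign alone, 16 of 20 S-phase genes were negative and 19 of 22 G2 and mitosis genes positive.

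Among the licensing genes, MCM5 (chr22:35400063-35425430 in GRCh38), a subunit of the MCM2-7 helicase, was at 96.2 CPM in the AGS control and at 56.1 and 49.3 CPM in the AGS libraries labelled NINJ1. It fell by 0.87 ± 0.15 (SE) on the log2 scale, or 1.83-fold (edgeR adjusted p = 8.02e-05). Its partner MCM2 was at 219.8 CPM in the control and at 151.0 and 149.6 CPM in the others, a log2 change of -0.55 ± 0.12 (edgeR adjusted p = 0.00220). Both libraries labelled NINJ1 lay below the control for these helicase genes, and their own values were close together. These genes passed the test on the same libraries, so this order is no separate evidence. MCM4 was at 418.4 CPM in the control and at 322.5 and 311.1 CPM in the others (log2 change -0.40 ± 0.12, edgeR adjusted p = 0.0238). The other MCM genes did not pass the test, with log2 changes of -0.32 for MCM6, -0.26 for MCM3 and -0.08 for MCM7. CDT1, which loads the helicase, was at 166.6 CPM in the control and at 138.2 and 122.9 CPM in the others (log2 change -0.35, adjusted p = 0.0648 with edgeR), and CDC6 had a log2 change of -0.22.

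At the fork, POLD1 (chr19:50384204-50418016), the catalytic subunit of polymerase delta, was at 72.3 CPM in the AGS control and at 58.6 and 46.1 CPM in the libraries labelled NINJ1. Its log2 change was -0.47 ± 0.15 (edgeR adjusted p = 0.0308), but -0.12 with the GC correction (adjusted p = 0.564) and past the threshold neither with DESeq2 (adjusted p = 0.0990) nor without replicate 2 of these libraries (edgeR adjusted p = 0.498). PCNA was at 133.9 CPM in the control and at 116.3 and 102.9 CPM in the others, and its log2 change of -0.29 did not pass (adjusted p = 0.140). The clamp loader genes RFC2 and RFC3 had log2 changes of -0.34 and 0.34, and RFC4 0.14. POLA1, GINS2 and CDC45 were at -0.33, -0.45 and -0.27, and POLE at 0.10, none past the threshold. Of the nucleotide synthesis genes, RRM2 was at 90.5 CPM in the control and at 108.5 and 95.8 CPM in the others (log2 change 0.18). RRM1 and TYMS were at -0.23 and -0.33, also not past it.

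Among the spindle checkpoint genes, TTK (chr6:80003887-80042527), the kinase that starts the checkpoint signal, was at 65.1 CPM in the AGS control and at 98.4 and 99.0 CPM in the libraries labelled NINJ1. It rose by 0.60 ± 0.15 on the log2 scale, or 1.52-fold (edgeR adjusted p = 0.00466). BUB1, a second checkpoint kinase at the kinetochore, was at 132.7 CPM in the control and at 178.7 and 184.4 CPM in the others (log2 change 0.45 ± 0.13, edgeR adjusted p = 0.0158). For both kinases the control lay below both libraries labelled NINJ1, which is no separate evidence, since both passed the test on these libraries. BUB1B, their partner, had a log2 change of 0.23 that did not pass. CDC20, which activates the anaphase-promoting complex, was at 100.7 CPM in the control and at 129.9 and 142.8 CPM in the others (log2 change 0.44, edgeR adjusted p = 0.0345), and UBE2C, the complex's ubiquitin-conjugating enzyme, had a log2 change of 0.23.

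Mitotic kinases and spindle genes followed. PLK1, a kinase of mitotic entry and spindle assembly, was at 96.5 CPM in the AGS control and at 126.4 and 140.8 CPM in the libraries labelled NINJ1 (log2 change 0.47 ± 0.14, edgeR adjusted p = 0.0191). BIRC5 (survivin, of the chromosomal passenger complex, chr17:78214186-78225636) was at 94.3 CPM in the control and at 127.6 and 131.6 CPM in the others (log2 change 0.46 ± 0.14, edgeR adjusted p = 0.0195). TPX2 was at 341.9 CPM in the control and at 430.9 and 488.0 CPM in the others (log2 change 0.43, edgeR adjusted p = 0.0231). In AGS all 3 genes were lowest in the control, an order drawn from the same values as the test. The Aurora kinases AURKA and AURKB, of which TPX2 activates the former, had log2 changes of 0.32 and 0.27 and did not pass.

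The proliferation markers and cyclin genes did not pass in AGS. MKI67 (Ki-67) was at 469.2 CPM in the control and at 520.0 and 581.5 CPM in the libraries labelled NINJ1, a log2 change of 0.23. TOP2A was at 948.4 CPM and at 983.3 and 1017.0 CPM (log2 change 0.08). CCNB1 was at 186.7 CPM and at 212.4 and 219.5 CPM (log2 change 0.21). CDK1 was nearly level, at 446.2 CPM in the control and 440.3 and 426.9 CPM in the others (log2 change -0.04). Of the motor and kinetochore genes, KIF23 was at 0.31, CENPF and CCNB2 at 0.25, and CENPE, KIF11 and KIF20A at 0.05 each. The negative values besides CDK1 came from NUSAP1 (-0.90 ± 0.36) and PRC1 (-0.11 ± 0.37), the members with few counts.

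**Figure D3:**
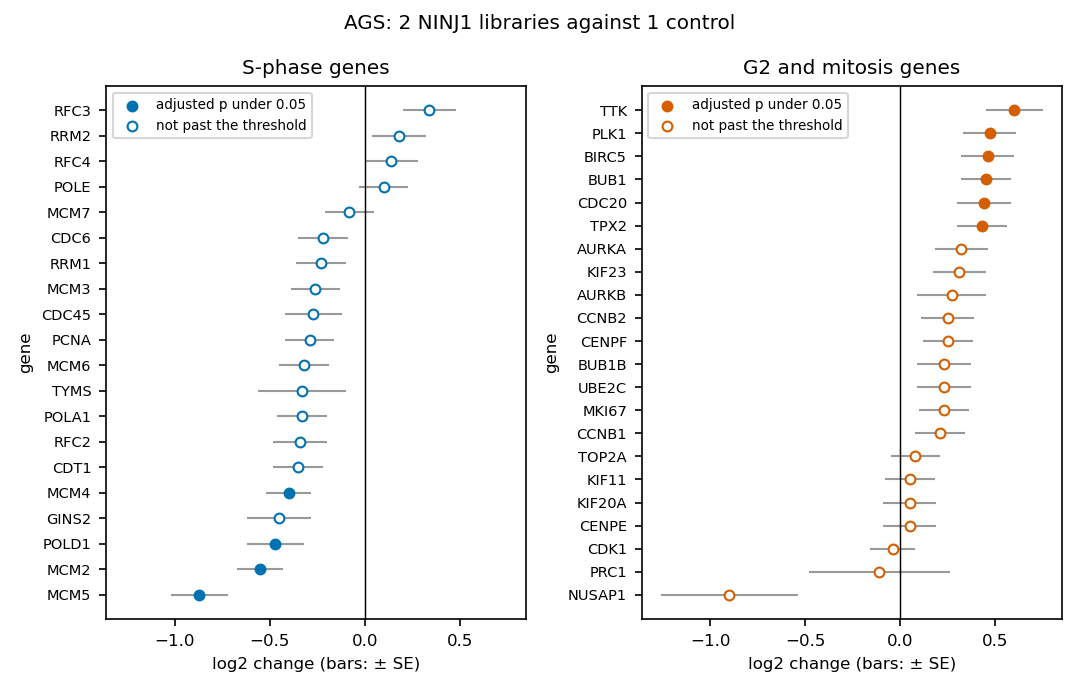
Log2 change (horizontal axis, bars ± SE from edgeR) of each member in the 2 AGS libraries labelled NINJ1 against the 1 AGS control, S-phase genes left and G2 and mitosis genes right; filled points passed an adjusted p of 0.05. The 4 filled S-phase points lie between -0.87 and -0.40 and the 6 filled G2 and mitosis points between 0.43 and 0.60.

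With DESeq2, PLK1 and CDC20 (adjusted p = 0.0521 and 0.102) and POLD1 did not pass in AGS. With limma on log2(FPKM + 1), MCM5 and TTK (adjusted p = 0.0526 and 0.0647), MCM4, POLD1 and PLK1 did not pass, while MCM2, BUB1 and BIRC5 did. With the GC correction, the AGS counts were 0 higher and 8 lower S-phase genes (MCM2, MCM4, MCM5, MCM6, PCNA, POLA1, GINS2 and RRM1), and the same 6 higher and 0 lower G2 and mitosis genes, beside 10.1% lower and 8.54% higher of all genes. The calls depend on single libraries: without AGS replicate 2 of those labelled NINJ1, 1 S-phase gene was lower (MCM5) and 0 G2 and mitosis genes were higher, beside 4.2% and 1.15% of all genes. Without replicate 1 of them, 2 were lower (MCM5 and POLD1) and 1 higher (TTK), beside 5.93% and 2.33%. Without either 1 of the HGC-27 NINJ1 libraries, which set part of the spread, 12 S-phase genes were lower and 10 or 11 G2 and mitosis genes higher, beside 14.5% and 12.7%. With lines as in the titles, 0 members were called in AGS by edgeR (0 at an unadjusted p under 0.05), beside 0% of all genes.

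Lists of other cell cycle genes gave a background to the members. Over all genes tested in AGS, 5.73% were higher and 9.3% lower. Of 51 other mitosis genes, 13 were higher and 1 lower in AGS, with a median log2 change of 0.31. SKA1 and SKA3, subunits of a complex that ties kinetochores to microtubules, rose by 0.95 ± 0.17 and 0.70 ± 0.15, and CDCA5 (sororin, which protects sister cohesion) by 0.65 (edgeR adjusted p = 0.000107, 0.00125 and 0.00132). Of 38 other replication genes, however, 3 were higher and 3 lower, with a median of 0.05, so the lower values of the 20 S-phase members were not shared by this list. Among the lower ones were DUT, an enzyme of nucleotide supply, at -0.80, and POLD2, the partner of POLD1, at -0.49 (edgeR adjusted p = 0.000188 and 0.0128). Among 20 E2F, RB and DREAM regulators, TFDP2 was higher (0.61), while E2F1, an activator of S-phase genes, fell by 0.60 and RBBP4 by 0.39 (edgeR adjusted p = 0.00187, 0.00416 and 0.0317). Of 12 brakes and checkpoint kinases, the cyclin-dependent kinase inhibitors CDKN1B and CDKN1C fell by 0.75 and 0.70 (edgeR adjusted p = 0.000323 and 0.000682) and 0 rose. The changes of E2F1 and CDKN1C were smaller with the GC correction, at -0.35 and -0.40 (edgeR adjusted p = 0.0292 and 0.0112).

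The libraries labelled NINJ1 of the 2 lines were compared next, because this contrast has 2 libraries on each side and uses no control. Of the S-phase genes, 10 were lower and 2 higher in AGS than in HGC-27, and of the G2 and mitosis genes, 7 were higher and 2 lower (edgeR). Over all genes tested, 20% were lower and 20.2% higher, and in a separate fit of the 7550 genes with a mean FPKM of at least 5, 24.3% and 24.7%. More S-phase members were higher in that fit as well, as given further below. The median log2 difference (AGS minus HGC-27) was -0.27 over the S-phase genes, 0.12 over the G2 and mitosis genes and -0.01 over all genes.

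POLD1 was at 108.8 CPM in both HGC-27 NINJ1 libraries and at 58.6 and 46.1 CPM in the AGS libraries labelled NINJ1, a log2 difference of -1.06 ± 0.12 (2.08-fold lower, edgeR adjusted p = 1.39e-08). CDT1 was at 188.7 and 207.2 CPM in HGC-27 and at 138.2 and 122.9 CPM in AGS (log2 difference -0.60 ± 0.11, edgeR adjusted p = 2.68e-05). MCM5 was at 73.9 and 94.7 CPM in HGC-27 and at 56.1 and 49.3 CPM in AGS (log2 difference -0.68 ± 0.13, edgeR adjusted p = 4.24e-05). The lines did not overlap for these genes, which is no separate evidence, since they passed the test on the same libraries. MCM2 was at 205.0 and 212.5 CPM in HGC-27 and at 151.0 and 149.6 CPM in AGS, and PCNA at 144.4 and 155.2 against 116.3 and 102.9 CPM. Their log2 differences of -0.47 and -0.45 passed the test (edgeR adjusted p = 0.000380 and 0.00102), as did those of GINS2 (-0.50), MCM3 and MCM6 (both -0.41), CDC6 (-0.34) and RRM1 (-0.29).

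Against the direction of the class, RRM2, the regulatory subunit of ribonucleotide reductase, was at 74.5 and 61.8 CPM in HGC-27 and at 108.5 and 95.8 CPM in AGS (log2 difference 0.58 ± 0.12, edgeR adjusted p = 0.000138). RFC4 was at 73.1 and 71.3 CPM in HGC-27 and at 100.5 and 105.2 CPM in AGS (log2 difference 0.51 ± 0.11, edgeR adjusted p = 0.000366). For both genes the HGC-27 values lay below the AGS values, an order drawn from the same values as the test. The 8 S-phase genes that did not pass were MCM4, MCM7, RFC2, RFC3, POLA1, POLE, CDC45 and TYMS, with log2 differences from -0.26 to 0.28.

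The cyclin B genes and their kinase were higher in AGS. CCNB1 was at 162.0 and 152.5 CPM in HGC-27 and at 212.4 and 219.5 CPM in AGS (log2 difference 0.46 ± 0.10, edgeR adjusted p = 0.000581). CCNB2 was at 78.1 and 73.9 CPM in HGC-27 and at 104.4 and 114.5 CPM in AGS (log2 difference 0.53 ± 0.11, edgeR adjusted p = 0.000233). CDK1 was at 330.3 and 313.7 CPM in HGC-27 and at 440.3 and 426.9 CPM in AGS (log2 difference 0.43, edgeR adjusted p = 0.000926). None of these 3 genes had overlapping lines, but this is no separate evidence, since they passed the test on the same libraries. BIRC5 differed most in this class, at 77.3 and 76.9 CPM in HGC-27 and 127.6 and 131.6 CPM in AGS (log2 difference 0.75 ± 0.11, 1.68-fold higher, edgeR adjusted p = 1.12e-06).

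CENPE, the kinetochore motor, CENPF and TOP2A were also higher in AGS, with log2 differences of 0.48, 0.40 and 0.37. TOP2A was at 851.1 and 695.9 CPM in HGC-27 and at 983.3 and 1017.0 CPM in AGS. MKI67 went the other way, at 713.0 and 820.2 CPM in HGC-27 and at 520.0 and 581.5 CPM in AGS (log2 difference -0.48 ± 0.11, edgeR adjusted p = 0.000413). Without AGS replicate 1 of those labelled NINJ1, the edgeR adjusted p was 0.0749 for MKI67 and 0.0572 for CDK1. AURKB, the kinase of the chromosomal passenger complex, was at 65.7 and 99.9 CPM in HGC-27 and at 59.9 and 66.6 CPM in AGS. Its lines overlapped, and its log2 difference of -0.39 (edgeR adjusted p = 0.0256) was -0.05 without HGC-27 NINJ1 replicate 2. The other 13 G2 and mitosis genes did not pass, and PRC1 had the largest value among them, 0.74 ± 0.32.

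**Figure D4:**
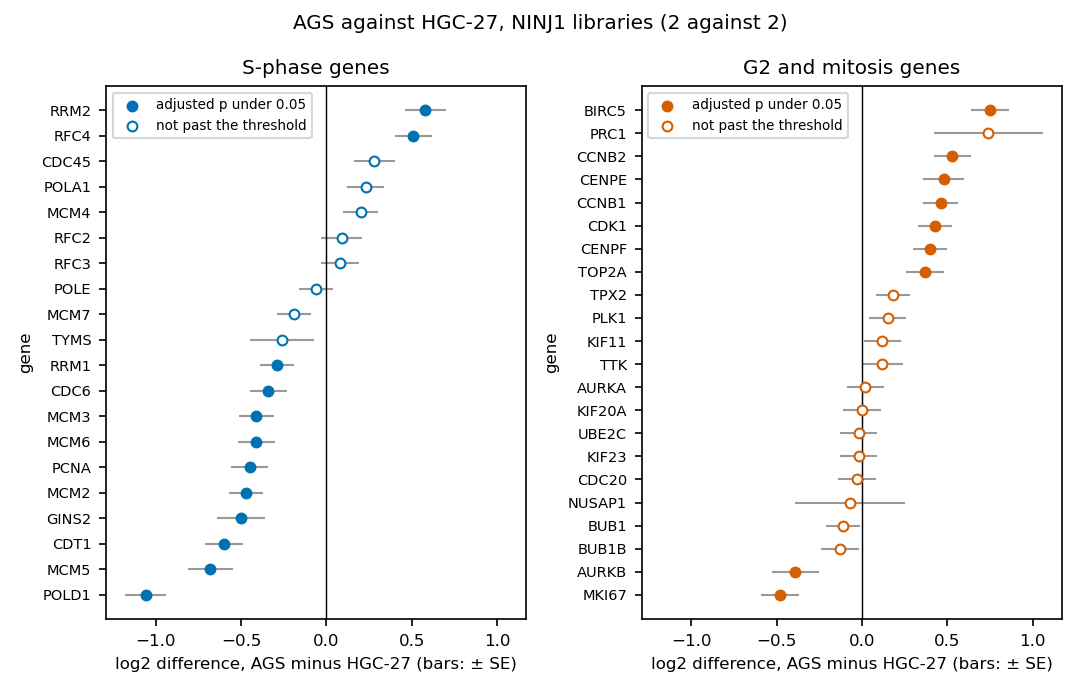
Log2 difference (horizontal axis, AGS minus HGC-27, bars ± SE from edgeR) of each member between the 2 AGS and the 2 HGC-27 libraries labelled NINJ1; filled points passed an adjusted p of 0.05. POLD1 (-1.06) has the lowest and BIRC5 (0.75) the highest value.

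With the GC correction this contrast gave 3 higher and 10 lower S-phase genes and 8 higher and 2 lower G2 and mitosis genes, beside 21.4% higher and 22.4% lower of all genes. Without AGS replicate 2 of those labelled NINJ1, 4 S-phase genes were lower (POLD1, CDT1, MCM5 and MCM2), beside 13.5% of all genes. With lines as in the titles, 0 members were called by edgeR and 0 had an unadjusted p under 0.05. The other lists are given from the uncorrected fit, where 20.2% of all genes were higher and 20% lower. Among the regulators, 10 of 20 were higher and 2 lower in AGS, led by TFDP1, the dimer partner of E2F factors (1.07), E2F7 (1.05) and E2F5 (2.08). Other replication genes were 7 higher and 6 lower of 38. Among the lower ones were LIG1, the ligase of Okazaki fragments, at -1.29, ORC1 at -0.69 and RPA2 at -0.72. Other mitosis genes were 12 higher and 5 lower of 51. Among the higher ones were ECT2, a regulator of cytokinesis, at 1.16, CENPA at 0.88 and NCAPD2 at 0.77. Of the 12 brakes and checkpoint kinases, 4 were higher and 3 lower, with CHEK1 at 0.84, CDKN1C at -0.91 and CDKN1B at -0.73.

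In HGC-27, before any GC correction, most genes of both classes were lower with NINJ1 than in the control on the TMM scale. As shares of all counts, the S-phase genes made up 0.329% in the control and 0.319% and 0.315% in the NINJ1 libraries. The G2 and mitosis genes made up 0.692%, 0.498% and 0.482% in the same order. Median FPKM, which is not TMM-scaled, was 23.3, 26.7 and 26.8 for the S-phase genes in this order. For the G2 and mitosis genes it was 30.7, 33.0 and 33.8. Of the S-phase genes, 11 were lower and 5 higher, and of the G2 and mitosis genes, 14 were lower and 5 higher (edgeR). Over all genes, 29.1% were lower and 34% higher, and in a fit of the 7550 genes with a mean FPKM of at least 5, 41% and 38.3%. The median log2 changes were -0.53 and -0.61, beside 0.12 over all genes. These values moved with GC content: across the 42 members, which share all libraries, Pearson's r between the log2 change and a gene's GC content was 0.79 (0.58 across all 17617 genes). After the GC correction r was -0.19 over the members (-0.30 for S-phase, 0.18 for G2 and mitosis genes) and 0.15 across all genes tested. In the corrected fit 0 S-phase genes were higher and 16 lower, and 3 G2 and mitosis genes higher and 9 lower. Of all genes, 21.9% were then higher and 27% lower. Over all members, the split of higher against lower calls was 10 against 25 uncorrected and 3 against 25 corrected. The corrected medians were -0.68 for the S-phase genes, -0.17 for the G2 and mitosis genes and -0.01 for all genes. Of 38 other replication genes, 4 were then higher and 16 lower (median -0.19), and of 51 other mitosis genes, 12 higher and 19 lower (median -0.05).

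Several genes of high GC content changed direction with the correction. CDT1 was at 42.8 CPM in the HGC-27 control and at 188.7 and 207.2 CPM in the NINJ1 libraries, a log2 change of 2.21 uncorrected and -0.70 corrected. POLD1 was at 21.8 CPM in the control and at 108.8 CPM in both others, 2.32 uncorrected and -0.60 corrected. MCM2 was at 110.0 CPM in the control and at 205.0 and 212.5 CPM in the others, 0.92 and -0.65. For these 3 genes both fits passed the threshold, in opposite directions, and the same held for MCM7, POLE and CDC20. PLK1 was at 47.1 CPM in the control and at 112.8 and 128.0 CPM in the others, 1.35 uncorrected and -0.03 corrected.

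Genes called lower in both fits were 8 S-phase genes (MCM4, MCM6, PCNA, RFC2, POLA1, GINS2, RRM1 and TYMS) and 8 G2 and mitosis genes (MKI67, CENPF, CENPE, KIF11, KIF20A, CCNB1, CCNB2 and TPX2). RRM1 was at 1066.7 CPM in the HGC-27 control and at 368.2 and 332.8 CPM in the NINJ1 libraries, a log2 change of -1.61 uncorrected and -1.13 corrected (edgeR adjusted p = 2.36e-13 and 4.61e-10). POLA1, of the primase complex, was at 390.1 CPM in the control and at 135.6 and 124.6 CPM in the others (-1.58 and -1.07). MKI67 was at 1927.8 CPM in the control and at 713.0 and 820.2 CPM in the others (-1.33 and -1.30, edgeR adjusted p = 3.26e-11 and 1.36e-10). In each of these genes the control lay above both NINJ1 libraries, an order drawn from the same values as the test. CENPF was at 1923.6 CPM in the control and at 627.4 and 597.1 CPM in the others (-1.65 and -1.01). KIF11, the motor that separates the spindle poles, was at 442.2 CPM and at 184.2 and 159.8 CPM (-1.36 and -0.64).

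The other S-phase genes named in this comparison were MCM6, at 273.9 CPM in the control and 139.0 and 136.8 CPM in the NINJ1 libraries (-0.99 uncorrected and -0.49 corrected), and MCM4, at 488.5 CPM and at 280.4 and 271.3 CPM (-0.82 and -0.83). PCNA was at 250.025 CPM in the control and at 144.4 and 155.2 CPM in the others (-0.74 and -0.39). MCM7 was at 237.6 CPM in the control and at 346.1 and 376.8 CPM in the others (0.61 and -0.87). RRM2 was at 98.7 CPM in the control and at 74.5 and 61.8 CPM in the others (-0.53, and -0.24 corrected, which did not pass). The last 3 of these span the range from lower in both fits, through opposite directions, to lower in 1 fit only.

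Higher in both fits were AURKB and UBE2C. AURKB was at 16.3 CPM in the HGC-27 control and at 65.7 and 99.9 CPM in the NINJ1 libraries (2.35 uncorrected and 1.22 corrected, edgeR adjusted p = 5.99e-12 and 2.96e-06). UBE2C was at 56.9 CPM in the control and at 113.7 and 139.4 CPM in the others (1.15 and 0.94, edgeR adjusted p = 4.17e-08 and 6.67e-07). The control was lowest for both, an order drawn from the same values as the test. CENPE was at 155.8 CPM in the control and at 87.5 and 68.0 CPM in the others (-1.0 and -0.27), and CDC20 was at 66.8 CPM and at 124.6 and 154.4 CPM (1.06 and -0.48). CCNB1 was at 259.8 CPM in the control and at 162.0 and 152.5 CPM in the others (-0.72 and -0.23), and TOP2A at 1399.0 CPM and at 851.1 and 695.9 CPM (-0.86, and -0.15 corrected, which did not pass). CDK1, at 384.3 CPM in the control and 330.3 and 313.7 CPM in the others, had a log2 change of -0.26 that did not pass and 0.48 corrected, which did (edgeR adjusted p = 0.000231).

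**Figure D5:**
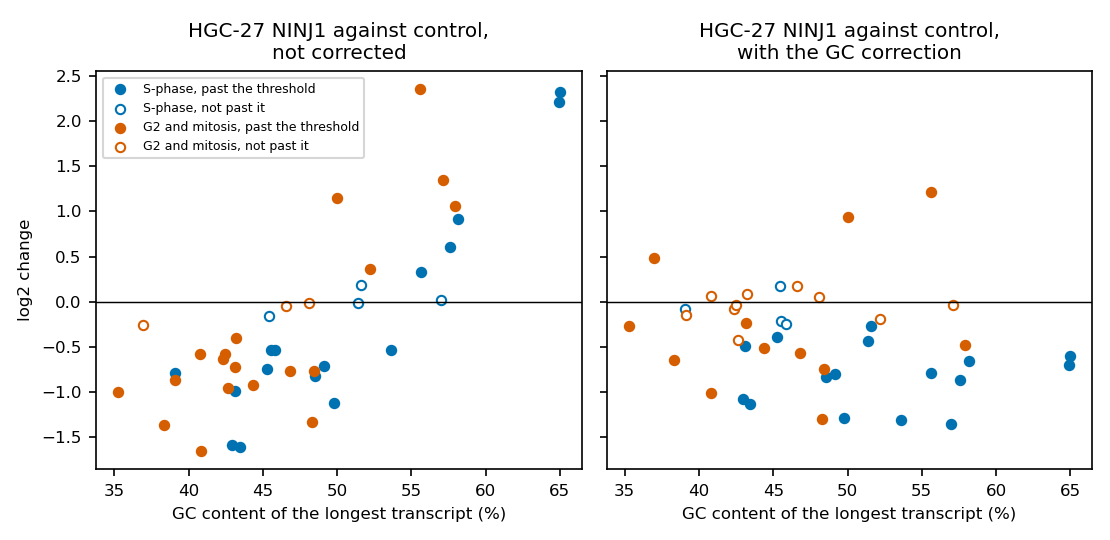
Log2 change in HGC-27 (NINJ1 against control, vertical axis) against the GC content of each member's longest transcript (%, horizontal axis), without (left) and with (right) the GC correction; filled points passed an edgeR adjusted p of 0.05. On the left the change rises with GC content (r = 0.79 over 42 genes). On the right r is -0.19 over the 42 genes, -0.30 over S-phase genes and 0.18 over G2 and mitosis genes.

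The AGS and HGC-27 changes were set against each other through the interaction term of the same model. The difference (AGS minus HGC-27) was called higher for 21 members and lower for 10, beside 23.9% and 30.2% of all genes, with medians of 0.28 over the S-phase genes, 0.87 over the G2 and mitosis genes and -0.15 over all genes. In a fit of the 7550 genes with a mean FPKM of at least 5, 36.9% were higher and 35.6% lower. With the GC correction 21 members were higher and 3 lower (19.7% and 15.4% of all genes), and the medians were 0.38, 0.39 and 0.01. Called higher in both fits were 4 S-phase genes (MCM4, POLA1, RRM1 and TYMS) and 9 G2 and mitosis genes, among them MKI67 (1.56 and 1.50), CENPF (1.91 and 1.17), TPX2 (1.20 and 0.95) and KIF11 (1.41 and 0.59). AURKB (-2.08 and -0.88) and UBE2C (-0.93 and -0.72) were lower in both. The S-phase median minus the G2 and mitosis median of this difference was -0.59 uncorrected and -0.01 corrected.

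Over both lines together, with the line as an additive term, 0 members were called by edgeR, and 0 of all 17617 genes (0%). At an unadjusted p under 0.05 there were 10 members and 2257 genes, and the smallest adjusted p of a member was 0.368. DESeq2 called 0 members and 312 genes (2% of those it tested). With the GC correction edgeR called 1 member, MCM5, lower (adjusted p = 0.0351), beside 1.6% of all genes. The member medians were -0.32 for the S-phase genes and -0.17 for the G2 and mitosis genes, beside 0.03 over all genes. The genes with the smallest p in each class were POLA1 (-1.0 ± 0.30), MCM4 (-0.62 ± 0.19), PLK1 (0.89 ± 0.27) and CDC20 (0.74 ± 0.24).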

How the data were processed

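RNA-seq tables of 6 libraries were used, each giving read counts and FPKM per gene. Per the submitters' processing notes, the authors used HISAT2, HTSeq 0.13.5 and GRCh38; annotation release and strand setting are not given in the sources used here. The deposited counts are whole numbers without normalization, and the deposited FPKM equals the count divided by gene length and library total (largest relative departure 6.40e-09). Gene models and GC content came from GENCODE 29. Totals of 12619684 to 18175697 counts limit the precision of low genes.

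Counts were fitted with edgeR 4.0.16 (R 4.3.3; filterByExpr with a minimum count of 10, TMM, quasi-likelihood F tests, two-sided, Benjamini-Hochberg over 17617 genes, adjusted p under 0.05), with 1 mean per line and treatment. Each line has 1 control, assumed to vary like the pairs of NINJ1 libraries. The SE is the log2 change divided by the square root of F. The GC correction used per-library lowess offsets (span 0.3). Code was tested on simulated data. Alternatives were DESeq2 1.42.0, limma 3.58.1 on log2(FPKM + 1) and log2(FPKM + 0.1), other size factors and filters, lines as in the titles, each library left out, and a replicate block. No 2 libraries had alike counts (at most 1.15% identical, among genes above a floor on the sum of the 2 counts).

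The members, lists and tests were chosen with earlier results of these data known. Named in each comparison were 7 set genes (MCM2, PCNA, RRM2, MKI67, TOP2A, CCNB1 and CDK1), up to 4 members per class and direction with the smallest p, and up to 3 genes per other list; further members are named to account for all 42. A result for 1 gene of the other lists is not reported here.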

Additional observations from a re-analysis of the deposited data

Results flagged for a closer look

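The change between control and NINJ1 libraries was compared between AGS and HGC-27 by the interaction term in edgeR (adjusted p under 0.05). It differed for 31 members and for NINJ1 itself, beside 54.2% of all 17617 genes tested. In a fit of the 7550 genes with a mean FPKM of at least 5, the level of most members, 72.5% of genes differed. The 4 members with the smallest p per class and direction are listed. The log2 differences (AGS minus HGC-27) of S-phase genes were 1.38 for RRM1, 1.26 for POLA1, 1.13 for RFC3 and 0.67 for MCM6, and -2.56 for CDT1, -2.79 for POLD1, -1.47 for MCM2 and -0.89 for MCM5. Those of G2 and mitosis genes were 1.91 for CENPF, 1.56 for MKI67, 1.41 for KIF11 and 1.20 for TPX2, and -2.08 for AURKB, -0.93 for UBE2C, -0.88 for PLK1 and -0.62 for CDC20. For NINJ1 the difference was -2.57. Each of these rests on the HGC-27 control, the library with 2.31% of its counts from genes above 60% GC. With the GC correction, RRM1, POLA1, CENPF, MKI67, KIF11 and TPX2 stayed higher, AURKB, UBE2C and NINJ1 stayed lower, RFC3 and MCM6 no longer passed, and the 6 others changed sign. Of these 6, CDT1, MCM5, PLK1 and CDC20 passed in the new direction, and MCM2 and POLD1 did not pass.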

How the results depend on the processing

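With lines as in the titles, the AGS comparison called 0 S-phase genes lower and 0 G2 and mitosis genes higher, and its class median difference (S-phase minus G2 and mitosis) was -0.25; HGC-27 had 0 higher and 2 lower S-phase and 2 higher and 1 lower G2 and mitosis genes; AGS against HGC-27 had 0 calls in either class and direction, with a median difference of 0.07; the difference of the contrasts had 0 higher and 0 lower members and a median difference of -0.25. POLD1 in AGS turned to 0.21 and MCM5 in the difference to 0.08. In AGS against HGC-27, RFC4 turned to -0.05, POLD1 to 0.11, CDT1 to 0.15, MCM5 to 0.29, MCM2 to 0.04, BIRC5 to -0.03, CCNB2 to -0.11, CCNB1 to -0.06, CDK1 to -0.01, MKI67 to 0.05 and AURKB to 0.27. Over all genes, this setting called 9.17% higher and 3.03% lower in HGC-27, and 0% in AGS, in AGS against HGC-27 and in the difference. This setting mixes the lines within each pair.

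The GC correction gave 8 lower S-phase genes in AGS; in HGC-27 it gave 0 higher S-phase genes, 3 higher and 9 lower G2 and mitosis genes and a median difference of -0.51. It turned CDT1 to -0.70, POLD1 to -0.60, MCM2 to -0.65, MCM7 to -0.87, PLK1 to -0.03 and CDC20 to -0.48 there. The difference of the contrasts then had 3 lower members and a median difference of -0.01, with CDT1 at 0.69, POLD1 at 0.47, MCM2 at 0.23, MCM5 at 0.59, PLK1 at 0.61 and CDC20 at 1.04. Over both lines it called 1 member lower, with a median difference of -0.39.

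A mean FPKM of at least 5 gave 9 lower S-phase genes in AGS and 4 higher ones in AGS against HGC-27. Over all genes in that fit, 13.5% were lower in the first comparison and 24.7% higher in the second. Limma with a pseudocount of 1 gave 1 lower S-phase and 2 higher G2 and mitosis genes in AGS (3.97% and 2.95% of all genes). It gave 5 and 9 lower genes of the classes in HGC-27 (18%) and 1 lower G2 and mitosis gene in AGS against HGC-27 (18.8%). In the difference 12 members were higher (15.7%). With 0.1 these were 1, 2, 5, 9, 1 and 11, beside 2.98%, 2.79%, 17.7% (both HGC-27 classes), 18.2% and 15.7%. DESeq2 gave 3 lower S-phase and 4 higher G2 and mitosis genes in AGS (6.47% and 3.46% of the genes it tested). In AGS against HGC-27 it gave 1 lower G2 and mitosis gene (13.8%). The cause of these was not tested.

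Leaving out each library in turn gave ranges, and the share of all genes called moved with the library left out as well. In AGS, 0 to 1 S-phase genes were higher and 1 to 12 lower, 0 to 11 G2 and mitosis genes higher and 0 to 1 lower, with a median difference of -0.65 to -0.46. In HGC-27 these were 4 to 5, 11 to 11, 4 to 5, 14 to 15 and 0.05 to 0.22. In AGS against HGC-27 they were 2 to 5, 4 to 11, 5 to 10, 0 to 2 and -0.47 to -0.35. The difference of the contrasts had 17 to 22 higher and 8 to 10 lower members (median difference -0.68 to -0.51). Both lines together had 0 to 10 higher and 0 to 25 lower (-0.55 to 0.08); without the AGS control that comparison is HGC-27 alone. A contrast whose control was left out has no value.

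The replicate numbers share only a name: deviations of equally numbered NINJ1 libraries across lines had r = 0.00 over genes. Among the 4 NINJ1 libraries alone, the replicate block gave 3 higher and 10 lower S-phase and 7 higher and 2 lower G2 and mitosis genes (median difference -0.40), the same counts as without the block (-0.39). Over all genes, 23.5% were higher and 22.7% lower with the block, and 22.8% and 21.8% without it. DESeq2's size factors in edgeR left all 59 named gene values on the same side of the threshold, and so did no filter on low counts. PRC1 and NUSAP1, the members with few counts, had an SE of 0.32 to 0.42, and the cause of their low counts was not tested.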
